A study of Mus musculus with 22 samples.

Results

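Cannabidiol (CBD) is a non-intoxicating compound of the cannabis plant, and lipopolysaccharide (LPS) is the outer-membrane component of Gram-negative bacteria that provokes systemic inflammation. The quantity described here is the interaction of the treatments in mouse brain, computed for each gene as the log2 LPS response of CBD-treated mice minus the log2 LPS response of vehicle-treated mice. A negative interaction therefore means that LPS raised the gene less, or lowered it more, in CBD-treated mice. All genes were taken, in 16 of the 22 libraries of the series, and 19180 of 56748 listed genes had enough counts to be tested. The series title frames the question as the reversal by CBD of neuroimmune priming in a mouse model of Gulf War illness, a chronic multisymptom condition of veterans.

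The 16 libraries came from whole brains of male C57BL/6J mice, 4 in each group, and the labels number each library as a separate mouse. GWCBD30LPS mice had CBD and LPS, GWCBD30 mice had CBD and PBS, GWVehLPS mice had vehicle and LPS, and GWVeh mice had vehicle and PBS. All 16 had been exposed at 10 weeks of age to pyridostigmine bromide (0.7 mg/kg), an acetylcholinesterase inhibitor, and permethrin (200 mg/kg), a pyrethroid insecticide that holds voltage-gated sodium channels open, in 10 daily injections, and were then aged to 17.5 months. CBD at 30 mg/kg, dissolved in PBS with 5% Tween 80, was injected daily for 28 days and then every other day for 2 weeks, and vehicle-treated mice had the vehicle in its place. Brains were collected 24 h after 0.33 mg/kg LPS or PBS. Unexposed mice, which had vehicle only and then LPS (CtrlVehLPS, 3 libraries) or PBS (CtrlVeh, 3 libraries), entered no term of the interaction. They served to choose a list of LPS-responsive genes, to give LPS responses beside it, and in an alternative fit to all 22 libraries. CBD was examined at 1 dose, at 1 time after LPS and in exposed males, so the interaction in unexposed mice was not analysed here.

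LPS in the blood is sensed by the receptor TLR4 with its co-receptors, first by cells of the vessel wall and by macrophages at the brain's borders, and NF-kB and interferon signalling then spread the response to microglia and astrocytes. Activated endothelium displays adhesion molecules that slow and bind leukocytes. Microglia, the resident macrophages of the brain, make C1q, whose chains set off the classical route of complement, and carry Fc gamma receptors, which bind the constant region of IgG. CBD binds the cannabinoid receptors CB1 and CB2 weakly and is known to act on other targets, among them TRPV channels, GPR55, the nuclear receptor PPAR gamma and adenosine signalling.

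Library totals of the 16 exposed samples ran from 18.2 to 31.2 M counts (median 21.9 M), and 3 counts, the floor below which a value was treated as not detectable, corresponded to 0.0963 to 0.165 CPM, counts scaled to library size. Pan-neuronal markers summed to between 9050 and 10292 CPM in every exposed library, as whole brain requires. Of 20 markers of blood-borne leukocytes, 4 passed the filter on low counts, and those 4 summed to 5.39 to 15.3 CPM. Olfactory bulb marker scores (mean log2 CPM of the list) were raised in GWCBD30LPS replicate 4 (3.21) and in GWVehLPS replicates 2 and 3 (3.08 and 3.54), against 2.00 to 2.59 in the other 13 libraries. Markers of brain regions also moved with the interaction: the median was -0.31 over 16 cerebellar neuron genes, all negative, -0.29 over 13 olfactory bulb genes and -0.18 over 14 choroid plexus genes, 13 of them negative. Calls that were lost without these 3 libraries, or with region scores as covariates, are given at the end. In whole tissue, fewer cells of a type and less RNA per cell cannot be told apart.

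The LPS response was smaller in CBD-treated mice for a small set of vascular, microglial and antimicrobial genes. In the interaction, 10 of 19180 genes passed an adjusted p of 0.05 (0.0521% of genes tested, edgeR quasi-likelihood test with Benjamini-Hochberg adjustment), and all 10 were negative. They were Icam1, Pecam1, Adgrl4 and Cd93, genes of vessel endothelium, Fcgr3, Fcgr4, C1qa, C1qb and Olfml3, genes of microglia and other macrophages, and Pglyrp1, which encodes a secreted protein that binds bacterial peptidoglycan. No gene had a positive interaction past the threshold. At an unadjusted p under 0.05 there were 1187 genes (6.19%), with 675 negative (3.52%) and 512 positive (2.67%). Without a threshold 50.4% of all genes were negative. Counts of list members given below are to be read beside these shares. DESeq2 called 20 genes (1 higher, 19 lower) and limma voom with sample quality weights called 36 (9 higher, 27 lower).

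The components of the interaction stood as follows. LPS changed 0 of 19180 genes in CBD-treated mice (0%), where 1655 genes (8.63%) had an unadjusted p under 0.05, and DESeq2 and limma voom called 57 and 108. It changed 232 genes in vehicle-treated mice (1.21%), 194 higher and 38 lower. CBD against vehicle changed 50 genes in mice that had LPS (0.261%), 5 higher and 45 lower, and 0 genes in mice that had PBS (0%), where 1307 (6.81%) had an unadjusted p under 0.05. All 10 genes of the interaction rose with LPS in vehicle-treated mice and were lower in GWCBD30LPS than in GWVehLPS, and none passed in the contrasts of GWCBD30LPS with GWCBD30 or of GWCBD30 with GWVeh. These contrasts share libraries with the interaction, so they describe its parts and are no separate evidence. In 9 of the 10 genes each GWVehLPS library lay above all 12 other exposed libraries, a pattern that 174 of 19180 genes (0.907%) showed. The 10 genes were called from these same libraries, so this pattern too is a description and no separate evidence.

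**Figure D1:**
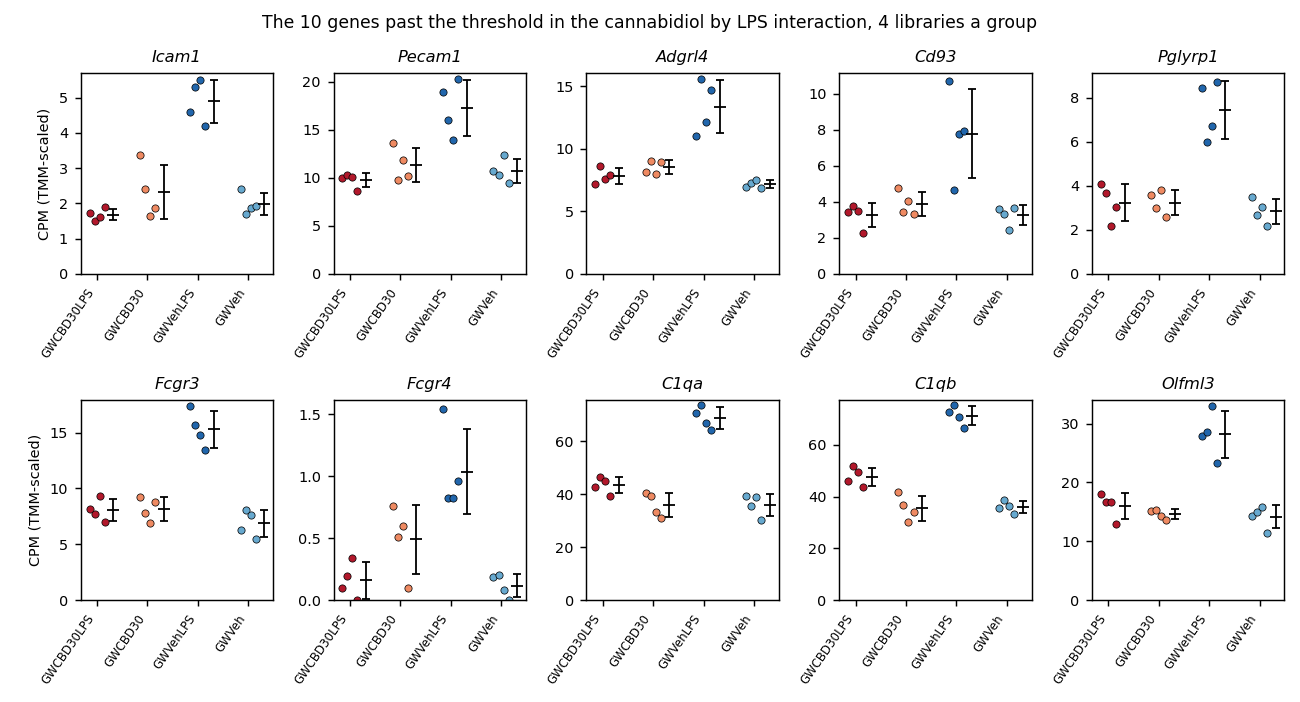
CPM (TMM-scaled) of the 10 genes past the interaction threshold, with 1 point per library and mean ± SD beside the points (n = 4 a group). The 4 GWVehLPS libraries stand above the other 12 in every panel but Cd93, where GWVehLPS replicate 2 (4.67 CPM) lies below GWCBD30 replicate 1 (4.76 CPM).

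Icam1 (chr9:21015940-21028814, GRCm38) encodes the adhesion molecule on activated endothelium that leukocyte integrins grip. It had 1.72, 1.51, 1.60 and 1.88 CPM in GWCBD30LPS and 3.37, 2.40, 1.65 and 1.88 CPM in GWCBD30. It had 4.59, 5.29, 5.49 and 4.20 CPM in GWVehLPS and 2.42, 1.71, 1.86 and 1.92 CPM in GWVeh. Every GWVehLPS library was high and the other 3 groups overlapped, with GWCBD30 replicate 1 the highest among them. The log2 LPS response was -0.48 ± 0.22 (SE) with CBD (adjusted p = 0.553) and 1.30 ± 0.21 with vehicle (adjusted p = 0.000467), an interaction of -1.78 ± 0.31 (95% interval -2.41 to -1.16, edgeR adjusted p = 0.0137). Without GWCBD30 replicate 1 the interaction was -1.54 and the adjusted p 0.109.

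Pecam1 encodes CD31, a junctional adhesion protein of endothelium, platelets and some leukocytes. Its level was 10.0, 10.3, 10.1 and 8.64 CPM in GWCBD30LPS, 13.6, 9.74, 11.8 and 10.2 CPM in GWCBD30, 18.9, 16, 13.9 and 20.3 CPM in GWVehLPS, and 10.7, 10.3, 12.4 and 9.48 CPM in GWVeh. Only the GWVehLPS libraries were apart from the rest. The interaction was -0.90 ± 0.18 (adjusted p = 0.0394), from log2 LPS responses of -0.22 ± 0.13 with CBD and 0.69 ± 0.12 with vehicle. Adgrl4 (ELTD1), an adhesion G protein-coupled receptor of endothelial cells, had 7.15, 8.64, 7.6 and 7.87 CPM in GWCBD30LPS, 8.17, 9.0, 7.98 and 8.97 CPM in GWCBD30, 11.0, 15.6, 12.1 and 14.7 CPM in GWVehLPS, and 6.98, 7.29, 7.53 and 6.86 CPM in GWVeh. Here too the GWVehLPS libraries did not overlap the other groups. The log2 LPS response was -0.13 ± 0.12 with CBD and 0.90 ± 0.12 with vehicle, an interaction of -1.03 ± 0.17 (adjusted p = 0.0136).

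Cd93 encodes a C-type lectin-like transmembrane receptor of endothelium and myeloid cells. It stood at 3.43, 3.76, 3.51 and 2.27 CPM in GWCBD30LPS, 4.76, 3.42, 4.03 and 3.35 CPM in GWCBD30, 10.7, 4.67, 7.78 and 7.93 CPM in GWVehLPS, and 3.60, 3.32, 2.44 and 3.67 CPM in GWVeh. GWVehLPS replicate 2 was the lowest of its group and overlapped GWCBD30. The interaction was -1.51 ± 0.30 (adjusted p = 0.0394), from -0.25 ± 0.21 with CBD and 1.26 ± 0.21 with vehicle.

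Of 16 measured genes of endothelial adhesion and activation, 1 (Icam1) was lower past the threshold, 0 higher and 15 not past it; 15 had a negative interaction (50.4% of all genes did) and 5 were lower at an unadjusted p under 0.05. The median interaction was -0.38, against -0.0013 over all genes. P-selectin (Selp), which starts leukocyte rolling, was near the floor, with 1 count in all in GWCBD30LPS and 8 in GWCBD30, against 62 counts in GWVehLPS and 5 in GWVeh. The depth-scaled ratio of those sums was 0.114 with CBD (95% counting interval 0.00256 to 0.848) and 11.6 with vehicle (4.73 to 37.1), and the adjusted p of the interaction was 0.236. Selp met the low-count filter only through GWVehLPS, where it had 0.549 to 1.01 CPM, against at most 0.211 CPM in the other groups. Its negative sign, counted among the 15 above, followed from that and is no separate evidence. E-selectin (Sele) failed the low-count filter and was not tested: its counts were 2, 0, 0 and 0 in GWCBD30LPS, 5, 3, 2 and 0 in GWCBD30, 9, 36, 17 and 25 in GWVehLPS, and 4, 0, 1 and 0 in GWVeh. Both selectins were above the counts of every other exposed library in each GWVehLPS library. These intervals cover counting error only.

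Of 21 measured markers of endothelial identity and the blood-brain barrier, 1 (Pecam1) was lower past the threshold and 20 did not pass, with 5 lower at an unadjusted p under 0.05 and a median of -0.19. Ly6c1, a GPI-anchored surface protein of brain endothelium, had an interaction of -0.97 ± 0.20 (adjusted p = 0.0676), and its paralogue Ly6a had -1.05 ± 0.29 (adjusted p = 0.56). The counting program is not given in the sources used here, so how reads of similar genes were assigned is not known. The list's mean log2 CPM was 3.60 to 3.71 in GWCBD30LPS, 3.44 to 3.70 in GWCBD30, 3.84 to 3.94 in GWVehLPS and 3.46 to 3.63 in GWVeh, so the endothelial markers as a list moved with the endothelial genes named above; their part in those results was not tested. Pericyte and smooth muscle genes had a median interaction of 0.017, with 0 of 10 past an unadjusted p of 0.05.

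All 12 measured Fc gamma receptors and their signalling adaptors had a negative interaction (50.4% of all genes did), with a median of -0.56. Of these, 2 were past the threshold (Fcgr3 and Fcgr4, 0.0521% of all genes) and 8 had an unadjusted p under 0.05 (3.52% of all genes). The median log2 LPS response of the list was 0.12 with CBD and 0.89 with vehicle. In 9 of the 12 each GWVehLPS library lay above the other 12 exposed libraries, as in 0.907% of all genes. Fcgr3, the low-affinity activating IgG receptor of microglia and macrophages, had 8.16, 7.71, 9.35 and 6.98 CPM in GWCBD30LPS, 9.22, 7.80, 6.88 and 8.82 CPM in GWCBD30, 17.4, 15.7, 14.8 and 13.4 CPM in GWVehLPS, and 6.30, 8.10, 7.66 and 5.51 CPM in GWVeh. Both CBD groups and GWVeh overlapped, and every GWVehLPS library was above them. The log2 LPS response was -0.02 ± 0.13 with CBD (95% interval -0.29 to 0.26) and 1.16 ± 0.13 with vehicle (adjusted p = 2.51e-06), an interaction of -1.17 ± 0.19 (95% interval -1.56 to -0.79, adjusted p = 0.0128).

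Fcgr4, the activating receptor for IgG2 subclasses, was a low-count gene. It met the low-count filter only with the help of its GWVehLPS libraries, where it was highest. Its values were 0.0971, 0.195, 0.344 and 0 CPM in GWCBD30LPS, 0.758, 0.508, 0.596 and 0.101 CPM in GWCBD30, 1.54, 0.823, 0.824 and 0.958 CPM in GWVehLPS, and 0.182, 0.201, 0.0828 and 0 CPM in GWVeh. Several libraries of GWCBD30LPS and GWVeh were at or near the floor. Summed counts were 16 in GWCBD30LPS and 44 in GWCBD30, a depth-scaled ratio of 0.331 (counting interval 0.174 to 0.598), and 101 in GWVehLPS and 10 in GWVeh, a ratio of 9.48 (4.95 to 20.4). The fitted interaction passed (adjusted p = 0.0394), and part of it lay in the PBS mice, where the log2 difference of GWCBD30 over GWVeh was 2.08 ± 0.69 (adjusted p = 0.723). The inhibitory receptor Fcgr2b had 2.82 to 3.89 CPM in GWCBD30LPS, 2.53 to 4.25 in GWCBD30, 6.36 to 8.62 in GWVehLPS and 2.51 to 4.15 in GWVeh, and its interaction of -1.02 ± 0.26 did not pass (adjusted p = 0.297). Tyrobp, the adaptor DAP12, had -0.56 ± 0.20 (adjusted p = 0.641). The Fc gamma receptor genes are similar in sequence, so a share of their reads may be exchanged between them.

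The promoters of the called Fc gamma receptor genes are printed because both hold motifs of inflammatory or myeloid factors, with the matches in capitals; promoters of other called genes without such a match are counted further on. The Fcgr3 window (RefSeq, chr1:171059404-171059653, minus strand, printed along the gene) holds an NF-kB consensus 152 to 143 bases before the start, a motif found on either strand in 7.25% of the 32851 RefSeq mouse promoters of this length (250 bases before the start). The Fcgr4 window (chr1:171018676-171018925, plus strand) holds an NF-kB consensus at the same distance, an interferon-stimulated response element (GAAA, any 2 bases, GAAA) 73 to 64 bases before the start (2.98% of promoters) and, on the opposite strand, the PU.1 site GAGGAAGT 24 to 17 bases before the start (2.44%). None of these matches overlaps another.
Fcgr3: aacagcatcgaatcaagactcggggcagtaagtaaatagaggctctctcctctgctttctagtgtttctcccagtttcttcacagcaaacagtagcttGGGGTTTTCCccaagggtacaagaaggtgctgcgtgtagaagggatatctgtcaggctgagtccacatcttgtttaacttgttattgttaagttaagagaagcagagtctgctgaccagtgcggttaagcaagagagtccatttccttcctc
Fcgr4: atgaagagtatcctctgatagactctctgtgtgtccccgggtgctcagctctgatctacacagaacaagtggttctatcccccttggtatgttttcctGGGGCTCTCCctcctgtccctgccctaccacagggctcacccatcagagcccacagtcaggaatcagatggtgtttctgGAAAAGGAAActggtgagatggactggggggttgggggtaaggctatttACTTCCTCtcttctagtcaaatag

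Of 16 measured complement genes, 2 were lower past the threshold (C1qa and C1qb, 0.0521% of all genes), 0 were higher and 14 did not pass. At an unadjusted p under 0.05, 10 were lower (3.52% of all genes), and the median was -0.55. C1qa, a chain of the C1q recognition molecule, had 42.8, 46.4, 45.1 and 39.4 CPM in GWCBD30LPS, 40.4, 39.3, 33.3 and 30.9 CPM in GWCBD30, 70.7, 73.6, 66.8 and 64.2 CPM in GWVehLPS, and 39.4, 35.7, 38.9 and 30.3 CPM in GWVeh. Its partner C1qb had 46.0, 51.6, 49.3 and 43.8 CPM in GWCBD30LPS, 41.7, 36.6, 30.2 and 33.9 CPM in GWCBD30, 72.7, 75.2, 70.7 and 66.5 CPM in GWVehLPS, and 35.5, 38.7, 36.4 and 33.3 CPM in GWVeh. For C1qb, unlike the other called genes, each GWCBD30LPS library was also above each GWCBD30 library, as in 3.33% of all genes. The log2 LPS response of C1qb was 0.42 ± 0.08 with CBD (adjusted p = 0.0521) and 0.99 ± 0.08 with vehicle (adjusted p = 3.69e-09), an interaction of -0.57 ± 0.11 (adjusted p = 0.0451). That of C1qa was 0.27 ± 0.09 with CBD and 0.93 ± 0.09 with vehicle, an interaction of -0.66 ± 0.12 (adjusted p = 0.0272). The remaining chain, C1qc, had -0.64 ± 0.14, just outside the threshold (adjusted p = 0.0711).

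Of 21 homeostatic microglia genes, 1 (Olfml3) was lower past the threshold (0.0521% of all genes) and 20 did not pass. In all 19 were negative (50.4% of all genes), 9 were lower at an unadjusted p under 0.05 (3.52% of all genes), and the median was -0.36. Olfml3, a secreted olfactomedin-like protein, had 18.0, 16.6, 16.6 and 12.9 CPM in GWCBD30LPS, 15.2, 15.4, 14.3 and 13.5 CPM in GWCBD30, 27.8, 28.6, 33.0 and 23.2 CPM in GWVehLPS, and 14.4, 15, 15.8 and 11.4 CPM in GWVeh. GWVehLPS was apart from the rest, and the interaction was -0.85 ± 0.16 (adjusted p = 0.0272). Csf1r, the receptor that microglia need to survive, had a log2 LPS response of 0.37 ± 0.08 with CBD (adjusted p = 0.0935) and 0.68 ± 0.08 with vehicle (adjusted p = 2.62e-06), and an interaction of -0.32 ± 0.11 that did not pass (adjusted p = 0.631). Ly86 (MD-1), which pairs with RP105 on the cell surface, had -0.97 ± 0.22 (adjusted p = 0.11). The mean log2 CPM of the list was 3.39 to 3.66 in GWCBD30LPS, 3.11 to 3.39 in GWCBD30, 3.64 to 3.93 in GWVehLPS and 3.13 to 3.29 in GWVeh. Genes of activated and disease-associated microglia had a median interaction of 0.016, with 5 of 26 lower at an unadjusted p under 0.05, led by B2m (-0.36 ± 0.11, adjusted p = 0.525).

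**Figure D2:**
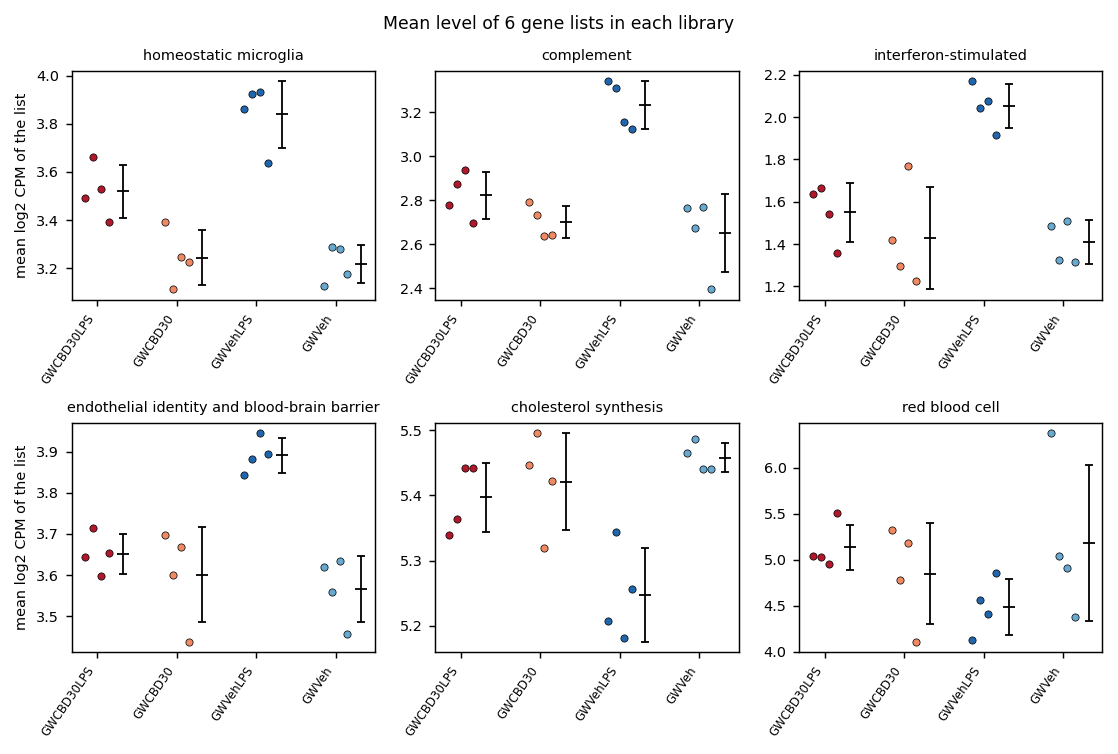
Mean log2 CPM of 6 gene lists in each library (points) with group mean ± SD (n = 4). GWVehLPS libraries are highest in the homeostatic microglia panel except for replicate 4 (3.64, below GWCBD30LPS replicate 2 at 3.66), and they lie low, with overlap, in the cholesterol synthesis and red blood cell panels.

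Acute-phase and antimicrobial genes had a median interaction of -0.80, which was -0.53 without GWCBD30 replicate 1 and -1.5 without GWVeh replicate 1, with 1 of 12 measured genes lower past the threshold, 11 not past it and 5 lower at an unadjusted p under 0.05. The called member, Pglyrp1, had 4.08, 3.66, 2.18 and 3.05 CPM in GWCBD30LPS, 3.58, 3.00, 3.80 and 2.59 CPM in GWCBD30, 8.44, 6.00, 6.73 and 8.72 CPM in GWVehLPS, and 3.51, 2.67, 3.02 and 2.19 CPM in GWVeh. Each GWVehLPS library exceeded every other. The 95% interval of the log2 LPS response was -0.41 to 0.41 with CBD and 0.99 to 1.79 with vehicle, and the interaction was -1.39 ± 0.28 (adjusted p = 0.0481). Ceruloplasmin (Cp), a copper-carrying ferroxidase, had 10.0 to 12.8 CPM in GWCBD30LPS, 11.5 to 15.7 in GWCBD30, 16.2 to 19.1 in GWVehLPS and 11.0 to 13.8 in GWVeh, with an interaction of -0.76 ± 0.16 (adjusted p = 0.0653). Lipocalin-2 (Lcn2), an iron-scavenging antibacterial protein, was scattered in GWVehLPS: it had 0.518, 0.683, 0.725 and 0.443 CPM in GWCBD30LPS, 1.98, 0.877, 0.183 and 0.304 CPM in GWCBD30, 17.3, 4.12, 8.51 and 16.7 CPM in GWVehLPS, and 3.10, 0.201, 0.703 and 0.219 CPM in GWVeh. Its interaction of -3.98 ± 1.26 did not pass (adjusted p = 0.641). Serum amyloid A3 (Saa3) summed to 14 counts in GWCBD30LPS and 12 in GWCBD30 (depth-scaled ratio 1.06, counting interval 0.455 to 2.51), and to 141 counts in GWVehLPS and 2 in GWVeh (ratio 66.1, 18.0 to 551), with an adjusted p of 0.278. Saa3 met the low-count filter only through GWVehLPS, with 0.588 to 2.87 CPM there and at most 0.420 CPM in the other groups. Its negative sign is therefore no separate evidence, though it enters the list's median. Of 18 listed acute-phase genes, 6 did not meet the filter.

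The Pglyrp1 promoter (RefSeq, chr7:18884440-18884689, plus strand) is shown as that of the called antimicrobial gene. In capitals is an NF-kB consensus on the opposite strand, 93 to 84 bases before the start.
Pglyrp1: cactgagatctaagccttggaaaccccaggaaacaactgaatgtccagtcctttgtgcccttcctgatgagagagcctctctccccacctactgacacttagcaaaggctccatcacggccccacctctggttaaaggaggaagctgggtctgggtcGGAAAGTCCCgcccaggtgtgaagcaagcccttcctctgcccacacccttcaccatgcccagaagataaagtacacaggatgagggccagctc

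Of the 10 called genes, 7 had a promoter in the table, as did 60 of the 78 named genes. Of these 7, 3 (Fcgr3, Fcgr4 and Pglyrp1) held an NF-kB consensus, interferon-stimulated response element or PU.1 site, against 12.3% of all promoters. The windows of Adgrl4, C1qb, Icam1 and Olfml3 held no match to these 3 motifs as searched. The NF-kB pattern required GGG as its first bases, so near matches without it were not counted, such as ggaaattcc in the Icam1 window. A motif match describes letters in this window and is not a measured binding site.

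Of 41 measured interferon-stimulated genes, 0 passed the threshold in either direction, 37 were negative, 15 were lower and 0 higher at an unadjusted p under 0.05, and the median was -0.57, from median log2 LPS responses of 0.11 with CBD and 0.65 with vehicle. Ifitm3, a membrane protein that restricts virus entry, had 10.2, 8.15, 8.32 and 6.87 CPM in GWCBD30LPS, 8.63, 7.11, 11.4 and 6.64 CPM in GWCBD30, 19.1, 15.6, 14.2 and 19.9 CPM in GWVehLPS, and 9.03, 7.44, 6.87 and 4.68 CPM in GWVeh. The GWVehLPS libraries did not overlap the others, and the interaction of -1.30 ± 0.25 was the nearest of the list to the threshold (adjusted p = 0.0549). It passed in 7 of 12 alternative settings, among them DESeq2 (adjusted p = 0.00443) and limma voom (adjusted p = 0.026), and in 3 of the 16 fits that left out 1 library, with interactions of -1.63 to -1.12 over all of these. Irf7, the transcription factor that amplifies type I interferon production, had -1.29 ± 0.38 (adjusted p = 0.525), with GWVehLPS replicate 1 at 8.90 CPM and the other 3 GWVehLPS libraries at 4.23 to 4.73 CPM. Without the 3 libraries with raised bulb scores the median of the list was -0.39.

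Antigen presentation genes had a median interaction of -0.30 and 5 of 16 lower at an unadjusted p under 0.05, led by B2m and the class I heavy chain H2-K1 (-0.47 ± 0.14, adjusted p = 0.566). Markers of macrophages at the brain's borders had a median of -0.68, with 9 of 10 negative and 3 lower at an unadjusted p under 0.05. Stab1, a scavenger receptor, had 11.5 to 15.2 CPM in GWCBD30LPS, 12.2 to 15 in GWCBD30, 14.9 to 21.1 in GWVehLPS and 11.2 to 12.3 in GWVeh, and an interaction of -0.73 ± 0.16 (adjusted p = 0.0835). In cytokine, chemokine and NF-kB target genes, 4 of 13 measured were lower at an unadjusted p under 0.05 and the median was -0.24; Nfkb2, an NF-kB subunit, had -0.90 ± 0.26 (adjusted p = 0.525). The LPS receptor and signalling list had a median of -0.13, with 2 of 17 lower at an unadjusted p under 0.05, where 3.52% of all genes were. Tlr4 itself had an interaction of -0.38 ± 0.39 (adjusted p = 0.927), and the LPS-binding protein gene Lbp had -0.60 ± 0.26 (adjusted p = 0.752). No gene of these 4 lists passed the threshold.

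**Figure D3:**
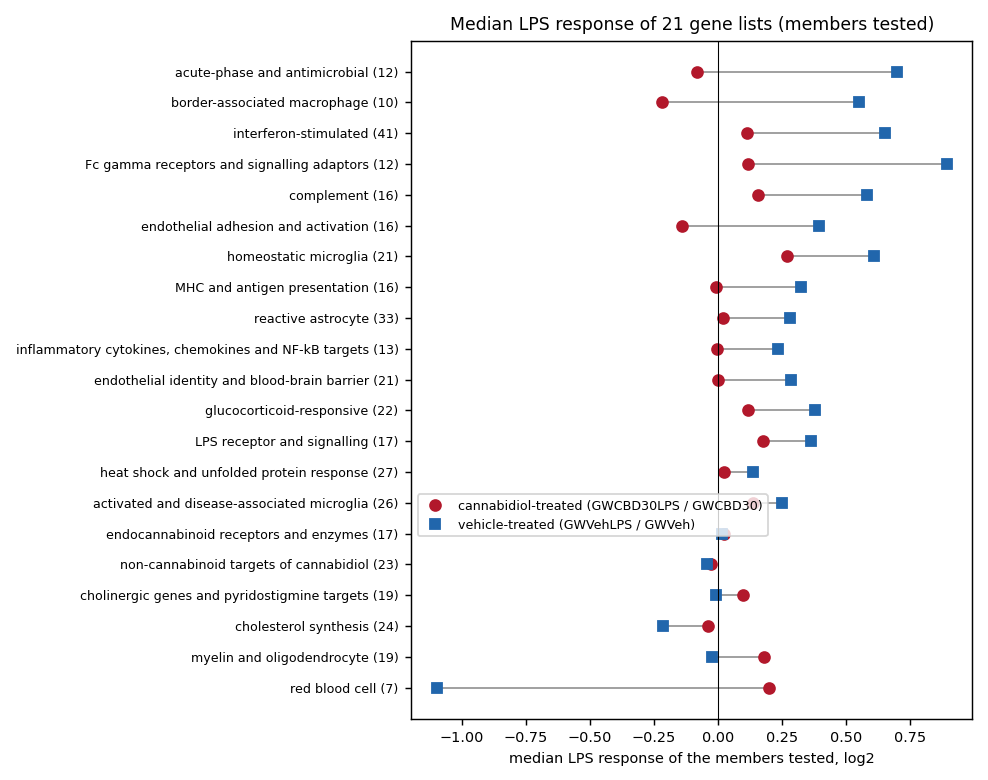
Median log2 LPS response of the measured members of 21 gene lists, with CBD (circles, GWCBD30LPS over GWCBD30) and with vehicle (squares, GWVehLPS over GWVeh); the number measured is in brackets. The acute-phase list lies at -0.08 with CBD and 0.70 with vehicle, and the red blood cell list is reversed, at 0.20 with CBD and -1.10 with vehicle.

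Some LPS-responsive genes had an interaction near 0. Tsc22d3 (GILZ), a glucocorticoid-induced anti-inflammatory gene, had 65.9, 73.7, 62.6 and 72.7 CPM in GWCBD30LPS, 51.4, 55.3, 50.6 and 53.7 CPM in GWCBD30, 72.0, 66.6, 69.3 and 78.2 CPM in GWVehLPS, and 59.7, 57.7, 54.9 and 54.4 CPM in GWVeh. In each arm all LPS libraries were above all PBS libraries. The log2 LPS response was 0.38 ± 0.07 with CBD (adjusted p = 0.0521) and 0.34 ± 0.07 with vehicle (adjusted p = 0.00447), and the interaction was 0.04 with a 95% interval of -0.15 to 0.24. Fkbp5, the glucocorticoid-induced co-chaperone of the glucocorticoid receptor, likewise had -0.08 ± 0.13 (95% interval -0.34 to 0.18). The glucocorticoid-responsive list as a whole had 8 of 22 members negative at an unadjusted p under 0.05, 0 past the threshold and a median of -0.15. Angptl4, a lipoprotein lipase inhibitor, had -1.21 ± 0.35 (adjusted p = 0.525), Cebpd, a transcription factor of the acute-phase response, -0.85 ± 0.26 (adjusted p = 0.556), and Fam107a, a stress-responsive actin-binding protein, -0.45 ± 0.13 (adjusted p = 0.566). The lipid-droplet gene Plin4 had 23.1, 6.16, 8.56 and 17.2 CPM in GWVehLPS, and its interaction was -1.64 ± 0.53 (adjusted p = 0.642). Without the 3 libraries with raised bulb scores Plin4 passed at -2.12 (adjusted p = 0.00073). That fit kept only replicates 1 and 4 of GWVehLPS, the highest of the group for Plin4.

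**Figure D4:**
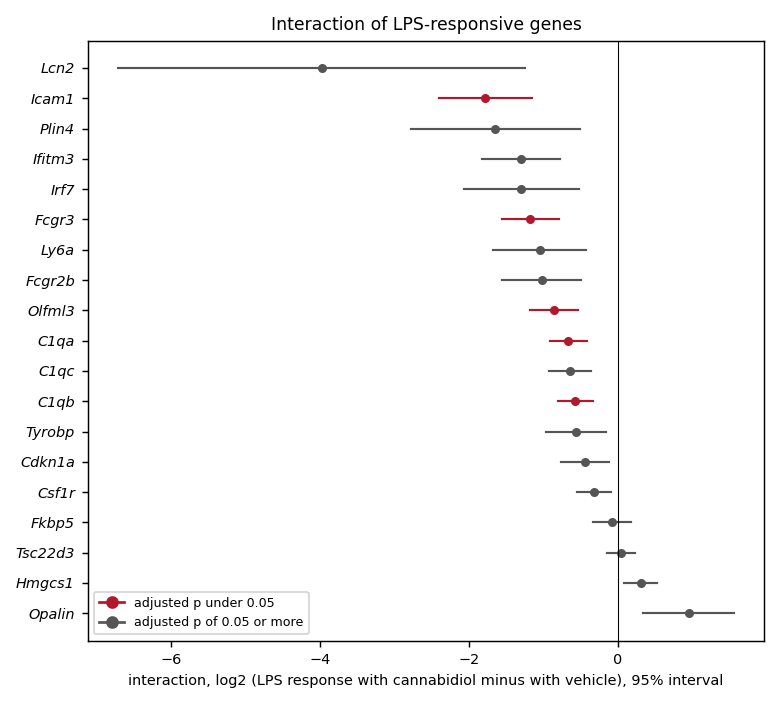
Interaction (points) with its 95% interval (bars) for 19 genes of a panel known from an earlier analysis of these data to change with LPS in vehicle-treated exposed mice. Of these, 5 have an adjusted p under 0.05 (Icam1, Fcgr3, Olfml3, C1qa and C1qb), while the intervals of Fkbp5 and Tsc22d3 include 0; the choice of panel shares libraries with the interaction.

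Reactive astrocyte genes had a median of -0.25, with 6 of 33 lower at an unadjusted p under 0.05 and 0 past the threshold; Osmr, the oncostatin M receptor, had -1.14 ± 0.30 (adjusted p = 0.364). Astrocyte identity genes had a median of -0.013, from median LPS responses of 0.18 with CBD and 0.19 with vehicle. Heat shock and unfolded protein response genes had a median of -0.10, with 23 of 27 negative and 0 past the threshold. At an unadjusted p under 0.05, 5 were lower, among them the endoplasmic reticulum genes Sdf2l1 (-0.61 ± 0.19, adjusted p = 0.564), Dnajc3 (-0.25 ± 0.09, adjusted p = 0.63) and Creld2 (-0.42 ± 0.16, adjusted p = 0.69).

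No positive interaction passed the threshold. The 6 with the smallest p were Krt9, a keratin (0.89 ± 0.20, adjusted p = 0.12), the troponin gene Tnnt2 (0.88 ± 0.21, adjusted p = 0.222), the striatal G protein regulator Rgs9 (0.48 ± 0.12, adjusted p = 0.222), the beaded filament gene Bfsp2 (1.04 ± 0.28, adjusted p = 0.42), the alarmin Il33 (0.39 ± 0.11, adjusted p = 0.525) and the adenylyl cyclase gene Adcy5 (0.27 ± 0.08, adjusted p = 0.525). Il33, which encodes a nuclear cytokine released by damaged cells and is made by oligodendrocytes and astrocytes, had 62.9, 72.9, 71.7 and 69.9 CPM in GWCBD30LPS, 69.0, 63.8, 63.4 and 71.7 CPM in GWCBD30, 52.7, 67.5, 54.8 and 46.8 CPM in GWVehLPS, and 69.5, 76.0, 68.2 and 68.5 CPM in GWVeh. It fell with LPS in vehicle-treated mice by 0.35 on the log2 scale (adjusted p = 0.0201), with GWVehLPS replicate 2 inside the range of the CBD groups.

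Cholesterol synthesis genes were positive throughout. All 24 had a positive interaction, 11 of them at an unadjusted p under 0.05 (2.67% of all genes) and 0 past the threshold. The median was 0.20, from median log2 LPS responses of -0.04 with CBD and -0.21 with vehicle. Hmgcs1, which makes HMG-CoA, had 155, 183, 162 and 166 CPM in GWCBD30LPS, 170, 172, 145 and 194 CPM in GWCBD30, 136, 157, 134 and 122 CPM in GWVehLPS, and 165, 172, 183 and 177 CPM in GWVeh. GWVehLPS was low apart from replicate 2, which overlapped both CBD groups, and the interaction was 0.31 ± 0.11 (adjusted p = 0.63). The Hmgcs1 promoter (RefSeq, chr13:119690101-119690350, plus strand) is shown for the sterol response element TCACNCCAC that it holds 137 to 129 bases before the start, in capitals, a motif of 1.05% of promoters.
Hmgcs1: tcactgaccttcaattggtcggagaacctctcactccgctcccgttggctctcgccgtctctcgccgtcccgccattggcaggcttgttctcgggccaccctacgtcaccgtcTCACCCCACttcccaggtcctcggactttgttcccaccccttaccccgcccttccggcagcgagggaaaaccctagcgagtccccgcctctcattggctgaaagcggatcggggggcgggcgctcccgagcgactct

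Myelin and oligodendrocyte genes had a median of 0.21, with 18 of 19 positive, 6 of them at an unadjusted p under 0.05 (2.67% of all genes) and 0 past the threshold. Opalin, a membrane protein of myelinating oligodendrocytes, had 16.1, 21.5, 18.3 and 21.3 CPM in GWCBD30LPS, 19.2, 23, 19.3 and 19.7 CPM in GWCBD30, 8.13, 18.1, 11.0 and 8.67 CPM in GWVehLPS, and 20.6, 28.1, 24.5 and 21 CPM in GWVeh. GWVehLPS replicate 2 was close to the other groups and the remaining GWVehLPS libraries were low. The interaction was 0.95 ± 0.28 (adjusted p = 0.629), and without the 3 libraries with raised bulb scores it was 1.37 and passed (adjusted p = 0.00073), as it did without GWVehLPS replicate 2 alone (1.27, adjusted p = 0.000594).

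Red blood cell genes also moved with the groups. All 7 had a positive interaction with a median of 1.23, and 2 were higher at an unadjusted p under 0.05. The mean log2 CPM of the list was 4.96 to 5.50 in GWCBD30LPS, 4.11 to 5.32 in GWCBD30, 4.13 to 4.85 in GWVehLPS and 4.38 to 6.37 in GWVeh, and its highest value belonged to GWVeh replicate 1. Hbb-bt, a beta globin gene with near-identical copies, had 41.8 CPM in that library and 5.42 to 9.20 CPM in the other GWVeh libraries. Without GWVeh replicate 1 the median interaction of the list was 0.51. With the red blood cell score as a covariate, a fit added after the data were seen, 16 genes passed the interaction threshold, among them 8 of the 10 named above and not Cd93 or C1qb.

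Of 17 endocannabinoid receptor and enzyme genes and 23 non-cannabinoid targets of CBD, 0 passed the threshold, and the medians were 0.018 and 0.090. Cnr1, the neuronal CB1 receptor, had 206, 219, 179 and 194 CPM in GWCBD30LPS, 198, 196, 219 and 248 CPM in GWCBD30, 193, 200, 212 and 210 CPM in GWVehLPS, and 199, 185, 198 and 223 CPM in GWVeh. The groups overlapped, and the 95% interval of its interaction was -0.34 to 0.08. Cnr2, the CB2 receptor of immune cells, stayed under 1 CPM in every exposed library, with 0.115 to 0.342 CPM in GWCBD30LPS, 0.183 to 0.558 in GWCBD30, 0.183 to 0.806 in GWVehLPS and 0.201 to 0.538 in GWVeh. The channel gene Trpv4 had 3.66 to 5.42 CPM in GWCBD30LPS, 3.50 to 4.97 in GWCBD30, 5.75 to 7.72 in GWVehLPS and 3.64 to 5.25 in GWVeh, so that each GWVehLPS library was above the other 12, with an interaction of -0.65 ± 0.23 (adjusted p = 0.655). Interaction intervals were -0.53 to 0.94 for Gpr55, -0.13 to 0.40 for Trpv2 and -0.42 to 0.68 for Pparg. Of 19 cholinergic genes, 4 were higher at an unadjusted p under 0.05 (2.67% of all genes) and 0 passed. Bche, a cholinesterase that pyridostigmine inhibits, had 0.46 ± 0.21 (adjusted p = 0.787).

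A list of LPS-responsive genes that shares no library with the interaction came from the unexposed mice. In CtrlVehLPS against CtrlVeh, 55 genes rose at an adjusted p under 0.05 in a separate edgeR fit. In the exposed mice, 43 of the 55 had a negative interaction, 22 (40.0%) were lower at an unadjusted p under 0.05, where 3.52% of all genes were, 3 (5.45%) were higher at that level, and 3 passed the interaction threshold (C1qa, C1qb and Olfml3). Their median log2 LPS response was 0.24 with CBD and 0.55 with vehicle in exposed mice and 0.84 in unexposed mice, and the median interaction was -0.27. The 0.84 came from the same libraries that chose the list, a choice that tends to raise it. It is therefore not comparable with the medians in exposed mice. A wider list, of genes higher in unexposed LPS mice at an unadjusted p under 0.001, held 124 tested genes, with 82 negative and a median of -0.12. Of these, 35 (28.2%) were lower at an unadjusted interaction p under 0.05. The 20 genes lower in unexposed LPS mice at an unadjusted p under 0.001 divided evenly by sign, 10 negative and 10 positive. At an unadjusted interaction p under 0.05, 3 of them (15%) were higher and 0 lower, where 2.67% of all genes were higher. Lists chosen without CtrlVehLPS replicate 1, at an adjusted p under 0.05, held 337 tested genes higher with LPS and 147 lower with LPS. Of the 337, 191 were negative, with a median of -0.059, and at an unadjusted interaction p under 0.05, 58 (17.2%) were lower and 8 (2.37%) higher. Of the 147, 80 were positive, with a median of 0.017, and at that level 14 (9.52%) were higher and 3 (2.04%) lower.

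Among the 6 genes of the wider list with the smallest interaction p were the C1q chains, Olfml3, Ly6c1 and Ctss, the lysosomal protease cathepsin S. Ctss had 45.3, 52.9, 51.3 and 42.3 CPM in GWCBD30LPS, 38.4, 35.3, 33.0 and 39.3 CPM in GWCBD30, 69.0, 76.1, 60.5 and 58.8 CPM in GWVehLPS, and 35.7, 29.1, 37.2 and 30.9 CPM in GWVeh. LPS libraries were above PBS libraries in both arms, and further above them with vehicle; the interaction was -0.60 ± 0.13 (adjusted p = 0.0676). The endothelial genes of the interaction did not pass in the fit of the 6 unexposed libraries. The log2 LPS response there was -0.02 ± 0.15 for Adgrl4, 0.12 ± 0.22 for Cd93, 0.19 ± 0.17 for Pecam1 and 0.43 ± 0.26 for Icam1. Without CtrlVehLPS replicate 1 these genes did not pass either, whereas Fcgr3 then did. With 3 libraries a group, a gene that did not pass may still respond. In the fit of all 6 unexposed libraries C1qb rose by 0.94 ± 0.09 (adjusted p = 0.000959) and Olfml3 by 1.07 ± 0.13 (adjusted p = 0.00207). Whether these responses differ between exposed and unexposed mice was not tested.

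**Figure D5:**
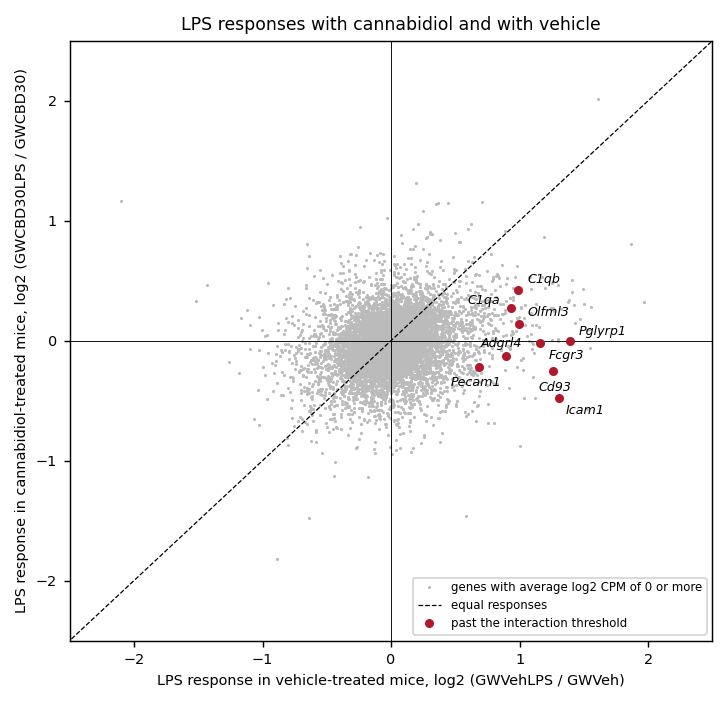
Log2 LPS response of each gene in CBD-treated mice (vertical axis) against that in vehicle-treated mice (horizontal axis), for 16169 genes whose average log2 CPM was 0 or more; 1 gene lies outside the axes, and the dashed line marks equal responses. The 9 labelled genes past the interaction threshold lie below the line, C1qb highest (0.42 with CBD, 0.99 with vehicle) and Icam1 lowest (-0.48 with CBD, 1.30 with vehicle).

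The called genes kept a negative interaction under every alternative that gave them a value; Fcgr4 did not enter the fit with the strict filter on low counts. In the 16 fits that each left out 1 library, Fcgr3 and Adgrl4 passed in 16, Icam1 in 14, Olfml3 in 9, C1qa in 8, Pecam1 in 6, Pglyrp1 and Fcgr4 in 5, Cd93 in 4 and C1qb in 3. These fits gave between 2 genes (without GWCBD30 replicate 1 or GWVeh replicate 2) and 21 (without GWVehLPS replicate 2), and 13 of the 16 moved the count by over 1.5 times.

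Without the 3 libraries with raised bulb scores 5 genes passed, of which Cd93 and Pecam1 were among the 10. In that fit Icam1 had an interaction of -1.68 (adjusted p = 0.0979), Fcgr3 -1.12 (adjusted p = 0.0672), Adgrl4 -0.96 (adjusted p = 0.0674) and Pglyrp1 -1.56 (adjusted p = 0.0674). C1qa had -0.59 (adjusted p = 0.176), C1qb -0.49 (adjusted p = 0.272), Olfml3 -0.62 (adjusted p = 0.254) and the low-count gene Fcgr4 an adjusted p of 0.0764. With bulb and cerebellar scores as covariates 8 of the 10 passed, and Pglyrp1 (-1.34, adjusted p = 0.0935) and Olfml3 (-0.85, adjusted p = 0.0631) did not. With the choroid plexus score as a covariate 3 genes passed, Fcgr3, Adgrl4 and Icam1; the other called genes had adjusted p-values of 0.0606 to 0.0963, with Cd93 at -1.41, Pglyrp1 at -1.41, Pecam1 at -0.91, Olfml3 at -0.78, C1qa at -0.63 and C1qb at -0.53.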

How the data were processed

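Whole-brain RNA of 22 mice was sequenced as poly(A)-selected, stranded, paired-end libraries from RNA of integrity number 8.5 or above, per the labels' protocols. The authors deposited 1 table of whole-number gene counts, not normalized, for 56748 Ensembl identifiers with symbols; 2693 symbols equalled the identifier, 52073 identifiers were in the GENCODE M21 name table, and 0 columns belonged to other samples. The genome build was GRCm38 (mm10), per the submitters' processing notes. The annotation release, the strand setting, the aligner and the counter are not named in the sources used here, so reads of antisense or near-identical genes may be assigned to either. Molecular identifiers are not mentioned in the labels, and counting intervals cover counting error only.

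Counts of the 16 exposed libraries were filtered with filterByExpr (19180 genes kept), scaled by TMM and fitted as 4 group means with edgeR 4.0.16 (R 4.3.3, robust quasi-likelihood, 12 residual degrees of freedom, common biological coefficient of variation 0.0955). Two-sided p-values were adjusted over all genes by the Benjamini-Hochberg method, with a threshold of 0.05; intervals are 95%, and scores are means of log2 CPM with a prior count of 2. Totals of 18.2 to 31.2 M counts set the floor of 3 counts at 0.0963 to 0.165 CPM. The LPS-responsive list came from a separate edgeR fit of the 6 unexposed libraries. Alternatives were other scalings and filters, DESeq2 1.42.0, limma 3.58.1 voom, a fit to all 22 libraries, the replicate number as a block, tissue-score covariates, and leaving out libraries; the red blood cell covariate was added after the data were seen. Procedures were tested on simulated data.

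Members and the 40 gene lists were chosen with earlier results of these data known. Among genes whose average log2 CPM was 0 or more, the 6 largest called interactions in each direction were named. Where fewer than 6 were called, genes with the smallest unadjusted p filled the places. Also named were every called gene, the 3 members with the smallest p in each of 21 described lists, and a panel of LPS-responsive genes. The drug's receptors with Tlr4, and 6 genes of the wider unexposed list (unadjusted p under 0.001), completed the set. Some genes that this rule names, and 1 promoter motif, are not reported here.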

Additional observations from a re-analysis of the deposited data

Results flagged for a closer look

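In 10 genes the LPS response differed between CBD-treated and vehicle-treated mice by the interaction test (edgeR): the log2 interaction was -1.78 for Icam1, -1.51 for Cd93, -1.39 for Pglyrp1, -1.17 for Fcgr3, -1.03 for Adgrl4, -0.90 for Pecam1, -0.57 for C1qb, -0.66 for C1qa and -0.85 for Olfml3, and the fitted value was -4.70 for the low-count gene Fcgr4.

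In 21 of 312 gene and group combinations 1 library stood far from the other 3 of its group, where chance gives about 1 in 20. Among vascular and acute-phase genes, Selp was 0.0488 CPM in GWCBD30LPS replicate 2 and 0 in the others, a difference of 1 count that lies under the floor of 3 counts, and 1.01 CPM in GWVehLPS replicate 4 against 0.549 to 0.595 in the others. Saa3 was 0.42 CPM in GWCBD30LPS replicate 3 (others 0 to 0.0647) and 0.337 CPM in GWCBD30 replicate 1 (others 0.0462 to 0.0917). GWCBD30 replicate 1 was also high for Cp, at 15.7 CPM (others 11.5 to 12), and for Lbp, at 6.74 CPM (others 4.16 to 4.51). GWCBD30LPS replicate 4 had 4.10 CPM of Lbp (others 5.84 to 6.15), 0.609 CPM of Bcl3 (others 0.229 to 0.293) and 3.32 CPM of Cebpd (others 2.73 to 2.82).

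Among interferon and macrophage genes, Irf7 was 8.90 CPM in GWVehLPS replicate 1 (others 4.23 to 4.73) and 3.80 CPM in GWCBD30 replicate 3 (others 1.72 to 1.80). Dhx58, a viral RNA sensor, was 1.42 CPM in GWCBD30 replicate 4 (others 2.77 to 3.03). F13a1, a coagulation factor subunit made by macrophages, was 2.49 CPM in GWCBD30LPS replicate 2 (others 1.64 to 1.77) and 5.64 CPM in GWVehLPS replicate 1 (others 2.71 to 3.14). Tyrobp was 13.3 CPM in GWVehLPS replicate 2 (others 9.61 to 10.0).

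In the remaining groups, Hba-a2 was 31.4 CPM and Hbb-bt 41.8 CPM in GWVeh replicate 1, where the other GWVeh libraries had 3.85 to 8.55 and 5.42 to 9.20 CPM. Il33 was 76.0 CPM in GWVeh replicate 2 (others 68.2 to 69.5), Opalin was 23 CPM in GWCBD30 replicate 2 (others 19.2 to 19.7), Dnajc3 was 71.1 CPM in GWCBD30LPS replicate 2 (others 66.5 to 66.7), and Pparg was 2.00 CPM in GWVehLPS replicate 1 (others 2.27 to 2.29).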

How the results depend on the processing

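The interaction count of 10 genes was 46 without a filter on low counts, 5 with a strict filter, 20 by DESeq2, 36 by limma voom, 16 with bulb and cerebellar scores, 3 with the choroid plexus score, 5 without the 3 LPS libraries with raised bulb scores, 16 with the red blood cell score (added after the data were seen) and 18 at an adjusted p under 0.1; leaving out 1 library gave 2 to 21. The LPS response of CBD-treated mice, 0 genes, gave 7 with RLE scaling, 98 without a filter, 57 by DESeq2, 108 by voom, 1 in the fit to all 22 libraries, 9 with the choroid plexus score and 14 at an adjusted p under 0.1, and 0 to 19 leaving out 1 library. The LPS response of vehicle-treated mice, 232 genes, gave 429 without a filter, 383 by DESeq2, 366 by voom, 117 with bulb and cerebellar scores, 145 with the choroid plexus score, 437 with the red blood cell score and 398 at an adjusted p under 0.1, and 153 to 285 leaving out 1 library. With the replicate block the interaction gave 16 genes, including all 10, and the LPS response with CBD gave 22; same-numbered libraries correlated at -0.0788 to 0.152 over 24 pairs and 3 libraries correlated best with their own number, so the numbers were not taken as pairing.

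Median interactions moved as follows. Without the 3 bulb libraries they were -0.39 for interferon-stimulated, -1.47 for acute-phase, -0.34 for glucocorticoid-responsive, -0.16 for heat shock and -0.023 for non-cannabinoid target genes. With the red blood cell score they were -1.78 for acute-phase, -0.30 for endothelial identity, -0.87 for border macrophage, -1.67 for leukocyte, -0.15 for cell cycle arrest, -0.96 for serotonin neuron and 0.079 for red blood cell genes. With bulb and cerebellar scores they were -0.12 for pericyte, -0.025 for cerebellar and 1.95 for red blood cell genes. Cytokine genes had -0.64 without a filter and -0.64 by DESeq2. Voom gave -1.38 for acute-phase and 0.43 for pancreatic enzyme genes. Non-cannabinoid targets had 0.040 without a filter, 0.026 by DESeq2, 0.029 by voom and 0.033 with the choroid plexus score. Leaving out 1 library gave -1.5 to -0.53 for acute-phase, 0.51 to 1.5 for red blood cell, -0.54 to -0.28 for endothelial adhesion, 0.023 to 0.12 for non-cannabinoid target, -0.17 to -0.017 for cell cycle arrest and -0.019 to 0.073 for circadian genes. Tsc22d3 changed sign near 0, to -0.0057 by voom, -0.048 without the 3 bulb libraries and -0.0055 with the red blood cell score. The cause of these shifts was not tested.

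Sele and Selp were under the floor of 3 counts in each GWCBD30LPS library, and Fcgr4 had 16 counts in all there, which limits the precision of their ratios. With 4 mice a group, the median SE of an interaction was 0.16 on the log2 scale.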

Other observations

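Lists of genes not described above gave no interaction past the threshold. Cytosolic ribosomal protein genes had a median interaction of 0.099 (74 of 85 positive) and nuclear-encoded oxidative phosphorylation genes 0.075 (71 of 84 positive), while the 13 mitochondrially encoded protein-coding genes had -0.0016. Hypothalamic neuropeptide genes had a median of 0.28, with 14 of 16 positive, and pan-neuronal genes 0.10, with 13 of 15 positive. NRF2 and antioxidant genes had 0.015, neuronal immediate-early genes 0.11, voltage-gated sodium channel genes, the targets of permethrin, 0.00019, and the 3 metallothionein genes -0.20. Cell cycle arrest and senescence genes had -0.047, with 3 of 15 lower at an unadjusted p under 0.05; Cdkn1a, which encodes the cell cycle inhibitor p21, had -0.44 ± 0.16 (edgeR adjusted p = 0.646). Circadian clock genes had 0.031, the 4 measured serotonin neuron genes 0.036, the 4 measured pancreatic enzyme genes 0.22 and the 4 measured blood leukocyte genes -0.44.

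Further members near the head of their lists also missed the threshold. Ch25h, which makes an antiviral oxysterol, had an interaction of -1.96 (edgeR adjusted p = 0.696), the chemokine Ccl12 -2.68 (adjusted p = 0.507), the sialic acid receptor Siglec1 -1.44 (adjusted p = 0.725) and the co-stimulator Cd86 -0.97 (adjusted p = 0.745). Among positive values, Cnp, a myelin enzyme, had 0.32 (adjusted p = 0.63), Cldn11, a myelin tight-junction protein, 0.30 (adjusted p = 0.655) and Pmvk, of the mevalonate pathway, 0.29 (adjusted p = 0.641).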
